A study of Saccharomyces cerevisiae with 83 samples.

Results

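The 12 libraries analysed here, of 83 in the series, compare the change in a pool of barcoded plasmids by generation 5 in the yeast strain AGY1861 with the change in the strain AGY1860. They were chosen by their labels: all libraries of these strains at generations 5 and 0 in the second batch, in 4 groups of 3. The study asked how extra copies of single genes affect growth in euploid and aneuploid Saccharomyces cerevisiae. All groups were haploid YPS1009 cells, a wild North American background, transformed with a library of barcoded centromeric (CEN) plasmids.

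The 4 groups were AGY1861 at generation 5, AGY1861 at generation 0, AGY1860 at generation 5 and AGY1860 at generation 0. The series holds euploid strains and strains with an added chromosome IV, VII, XII or XV, with or without SSD1, but its labels do not pair AGY1861 or AGY1860 with a karyotype or with an SSD1 state. Each culture was started from 1 mL of thawed stock at an OD600 of 0.05 in 100 mL of medium without histidine, at 30 °C. Nourseothricin (100 mg per L), which held the added chromosomes, and G418 (200 mg per L), which held the plasmids, were in every culture. The generation 0 libraries were made from what remained of the stocks. The labels give 3 separate transformations for the 3 replicates of a strain in this batch.

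A centromeric plasmid is kept at low copy and segregates much as a chromosome does, so a cell that carries it has a small rise in the dose of the cloned gene. In a pool, the share of a barcode falls when its carriers divide more slowly than the other cells or lose the plasmid, and these cannot be told apart in barcode counts. The series uses this to mimic, gene by gene, the added dose that a whole extra chromosome brings. Ssd1 is an RNA-binding protein that binds transcripts of cell wall proteins, and wild yeast strains that lack it tolerate extra chromosomes poorly. All changes below are relative to the rest of the pool.

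At generation 5 the total counts were 474275, 1906555 and 3623130 in the AGY1861 libraries, against 928023, 2134217 and 1276063 in the AGY1860 libraries. The generation 0 libraries held 1298424 to 4352501 counts in AGY1861 and 3438593 to 5452774 in AGY1860. Of the counts at generation 5, the 10 most abundant barcodes took 32.4%, 38.6% and 25.1% in AGY1861, against 1.67%, 1.65% and 1.71% in AGY1860. The means were 32.02% ± 6.75 in AGY1861 and 1.68% ± 0.0322 in AGY1860 (SD, n = 3 each), and the two-sided exact permutation p was 0.1, the smallest that 3 cultures against 3 can give. Shares of the total count would therefore make nearly all other AGY1861 barcodes look depleted. By library size alone the median log2 change was -0.88 in AGY1861, against -0.05 in AGY1860. Libraries were therefore scaled with TMM, which matches them on the bulk of their barcodes. TMM moved the median log2 change to 0.03 in AGY1861 and 0.07 in AGY1860, and the median difference between the strains, -0.77 by library size, to 0.02. Values are given as CPM (counts per 1e6 of the TMM-scaled library).

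One library stands apart from its label. Across 4263 entries with a mean of at least 50 counts at generation 0, the log2 changes of AGY1861 culture 3 had a Spearman correlation of 0.797 with those of AGY1860 culture 3. They correlated at 0.372 and 0.489 with the changes of cultures 1 and 2 of AGY1861. In the whole batch, the other 376 pairs of later libraries from different strains lay between 0.0387 and 0.564, except that the same AGY1861 library correlated at 0.809 with AGY1860 culture 3 at generation 10. Libraries of 1 culture at 2 generations correlated at 0.762 to 0.939, so the pair of culture 3 libraries from different strains lay in that range. The measures are not fully alike: changes of 1 culture share a generation 0 library, and those of the pair from different strains do not. These are correlations across entries, which are not independent replicates, and each pair shares the plasmid library. Among 201 entries with a log2 change under -2 in AGY1860 culture 3, the median change was -0.32, -0.62 and -1.30 in AGY1861 cultures 1, 2 and 3. What this library shares with AGY1860 culture 3, and its part in the results, was not tested. Counts of the main classes are given also without this culture.

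The starting pools were alike. The strains' generation 0 levels differed by a median of 0.06 on the log2 scale over those 4263 entries, and by a median of 0.05 over the 51 of them that form the class described next.

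By generation 5 far more plasmids were called lower in AGY1860 than in AGY1861 in the joint fit of both strains. Of 4524 entries tested, 44 were called lower in AGY1861 (0.973%) and 531 in AGY1860 (11.7%). The entries called higher numbered 205 in AGY1861 (4.53%) and 479 in AGY1860 (10.6%). Called means an adjusted p under 0.05 in edgeR's quasi-likelihood test with Benjamini-Hochberg adjustment over all entries. The joint fit takes the same spread between replicates for both strains. At generation 5 the median SD of log2 CPM was 0.29 in AGY1861 and 0.44 in AGY1860. Fits to each strain's own libraries called 528 entries in AGY1861 and 517 in AGY1860 in either direction. The joint fit called 249 and 1010, so the contrast in these counts depends on the fit. An entry is 1 name in the count table, and 54 of the 4817 genes have 2 entries. The difference between strains itself, the AGY1861 change minus the AGY1860 change, was called for 138 entries (3.05%). It was positive for 136 (3.01%) and negative for 2 (0.0442%). These counts move with each AGY1861 culture. Of the same entries, with both libraries of culture 1, 2 or 3 left out, 13, 3 and 4 were called lower in AGY1861, against 460, 427 and 491 in AGY1860. The difference was then positive for 58, 54 and 207, and negative for 0, 0 and 45.

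The split of these calls depends on the scaling. With library sizes counted without the 50 most abundant AGY1861 barcodes, 82 entries were called lower and 150 higher in AGY1861, and 630 lower and 255 higher in AGY1860. The difference then kept nearly the same split, 2 negative and 134 positive. By library size alone, 2879 were called lower and 85 higher in AGY1861, 581 lower and 93 higher in AGY1860, and the difference was negative for 1392 and positive for 101.

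Sorted by both changes and their difference, 60 entries were called lower in AGY1860, not called lower in AGY1861, and called for the difference (1.33%). No entry did the reverse. A further 431 entries were called lower in AGY1860 and not in AGY1861 without a call for the difference, so they are not counted among the 60. In 40 entries the fall was called in both strains, and for 8 of these the difference was also called, each with the deeper fall in AGY1860. The other 68 entries with a positive difference were called higher in AGY1861 and were not called lower in AGY1860. Only 3 entries were called in opposite directions, CMC1_2, PCL1 and AZF1, all higher in AGY1861 and lower in AGY1860. For AZF1 the AGY1860 fall is not measured, since its generation 0 libraries there held only 10, 2 and 17 counts. AZF1 passed the count filter through AGY1861 at generation 5, with 8, 79 and 68 counts.

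**Figure D1:**
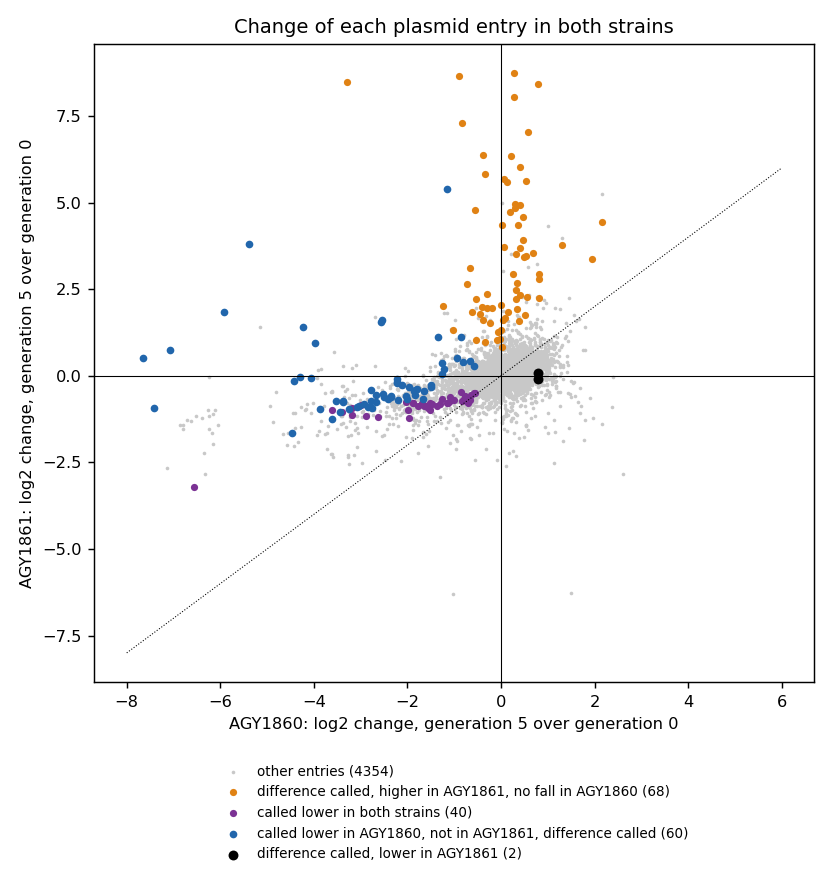
Log2 change by generation 5 in AGY1861 (vertical axis) and AGY1860 (horizontal axis) for the 4524 entries tested. Each point is an entry, colours give the classes, and the dotted line marks equal change. The 60 blue entries have medians of -0.41 in AGY1861 and -2.51 in AGY1860. For 5 of them with 0 counts in every AGY1860 library at generation 5, the horizontal position is a fitted value and not a measurement.

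The 60 entries had a median log2 change of -0.41 in AGY1861 and -2.51 in AGY1860, and a median difference of 2.03. With the 5 entries that had 0 counts at generation 5 in AGY1860 set to their bound, the AGY1860 median was -2.22 and the median difference 2.01. These values describe the choice, since the same contrast chose the entries. The empty vector, which carries no yeast gene, had a mean culture change of -0.38 in AGY1861 and -1.27 in AGY1860. Some members fell in AGY1860 no more than that mean, PCL1, CMC1_2, STE4 and TRM5 among them, and the shallowest fall of the 60 was -0.57. In the fit to all 51 libraries of the batch, YCL002C (-0.59), FMP48 (-0.84) and CUE5 (-0.95) were shallower than it too. Falls relative to the vector were not tested. Not called lower is not the same as unchanged: the AGY1861 estimate was below 0 for 42 of the 60. The lowest of these estimates was -1.65, under the median of -0.79 for the 40 entries called lower in both strains. Fell in AGY1860 and not in AGY1861, or in AGY1860 alone, is short for this rule of calls. Of the 51 with a mean of at least 50 counts at generation 0, the 3 cultures of AGY1861 lay above the 3 cultures of AGY1860 in all 51, as they did in 13.7% of all 4263 entries at that depth, while they lay below in 8.49%. Within AGY1861, culture 3 was the lowest of the 3 in each of the 51. The median log2 change over them was -0.09, -0.38 and -1.02 in AGY1861 cultures 1, 2 and 3, and -2.17, -2.54 and -2.01 in AGY1860 cultures 1, 2 and 3. With AGY1861 culture 3 left out (both of its libraries), 127 entries met the rule, among them 54 of the 60. With culture 3 of both strains left out, 112 met it, 44 of the 60 among them.

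**Figure D2:**
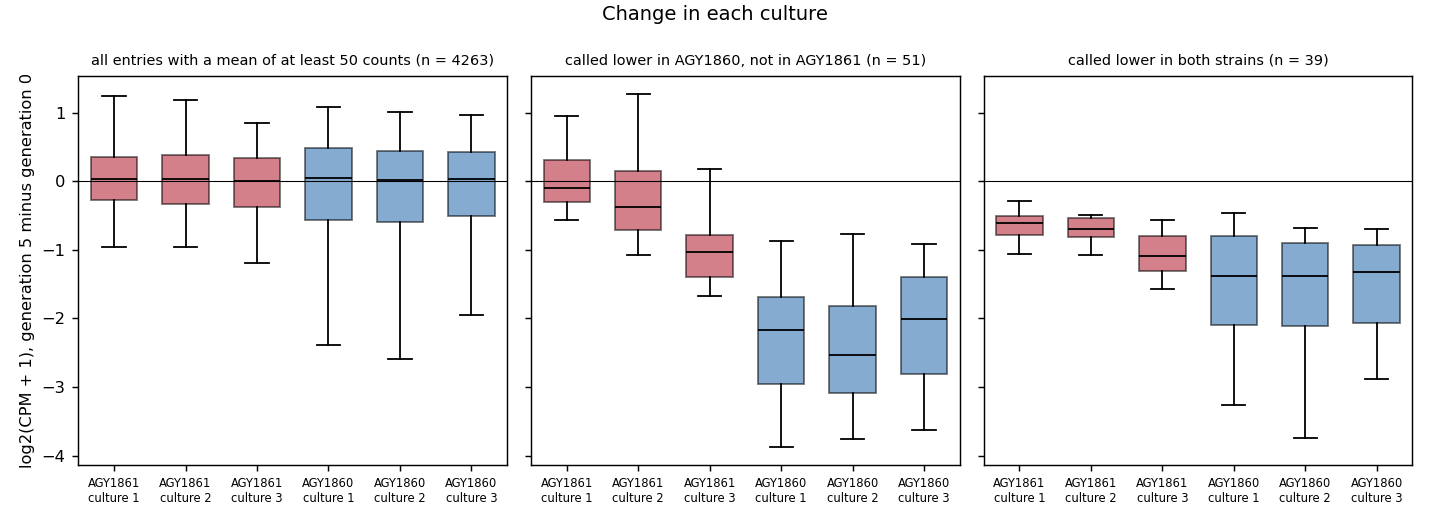
Change of log2(CPM + 1) by generation 5 in each culture, for 4263 entries, for the 51 that fell in AGY1860 and not in AGY1861, and for entries that fell in both. Boxes span the quartiles with the median, and whiskers run from the 5th to the 95th percentile. AGY1861 culture 3, with a median of -1.02 in the middle panel, lies between the other AGY1861 cultures and AGY1860.

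Removing single libraries moved the count between 17 and 226. It was 204 without the generation 5 library of AGY1861 culture 3, all 60 among them, and 226 without that of AGY1860 culture 3, 53 of the 60 among them. It was 95 without that of AGY1860 culture 1. It was 18 and 22 without those of AGY1861 cultures 1 and 2, and 17 to 25 without any 1 of the 6 generation 0 libraries. In all 12 such fits 8 entries met the rule: AEP3, PCA1, GGC1, LOC1, ERG26, PDE1, TUB1 and PCL1. With both libraries of an AGY1861 culture left out, 5 entries met it without culture 1 and 10 without culture 2, with 4 and 5 of the 60 among them. By DESeq2 107 entries met it, 44 of the 60 among them and AEP3 not. By a fit to all 51 libraries of the batch 13 did, with 7 of the 60 and none of those 8.

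The entries with the lowest adjusted p of the difference come first. TFC3 encodes the largest subunit of TFIIIC, the factor that recruits RNA polymerase III to tRNA genes. At generation 5 its barcode stood at 307, 247 and 150 CPM in AGY1861, against 37.4, 26.1 and 47.2 CPM in AGY1860. At generation 0 it had 402, 365 and 371 CPM in AGY1861, against 376, 384 and 377 CPM in AGY1860. The groups do not overlap at generation 5, which the choice of the entry by this contrast favours, and culture 3 is the lowest in AGY1861. The log2 change was -0.74 ± 0.23 (SE) in AGY1861, with an adjusted p of 0.0925, and -3.38 ± 0.26 in AGY1860, which is 10.4-fold lower. The difference was 2.64 ± 0.34 by edgeR's quasi-likelihood test, with an adjusted p of 0.000496, and 2.90 without AGY1861 culture 3.

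NUP60, a nucleoporin of the nuclear basket, had 248, 188 and 132 CPM at generation 5 in AGY1861, against 55.1, 36.4 and 42.3 CPM in AGY1860. Its generation 0 mean was 302.0 ± 9.80 CPM in AGY1861 and 300.1 ± 9.29 CPM in AGY1860 (SD, n = 3 each). The difference was 2.05 ± 0.30 on the log2 scale, and 2.26 without AGY1861 culture 3. SSQ1, the mitochondrial Hsp70 of iron-sulfur cluster assembly, had 774, 439 and 280.4 CPM at generation 5 in AGY1861, against 106, 78.8 and 93.8 CPM in AGY1860. Both strains started near the same level, at 933 ± 7.95 CPM in AGY1861 and 881 ± 6.79 CPM in AGY1860. The AGY1861 change of -0.96 ± 0.26 for SSQ1 just missed its threshold by edgeR's test, with an adjusted p of 0.0508, and the AGY1860 change was -3.26 ± 0.28. Without AGY1861 culture 3 the difference of SSQ1 was 2.61, against 2.30 with it.

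A similar pattern held for 4 more of these entries. STV1, a subunit of the vacuolar-type ATPase at the Golgi and endosomes, had 155, 103 and 71.8 CPM at generation 5 in AGY1861, against 26.6, 18.8 and 25.4 CPM in AGY1860. It changed by -0.91 in AGY1861 and -3.07 in AGY1860 on the log2 scale. ECM15 changed by -0.86 in AGY1861 and -3.03 in AGY1860. GGC1, which carries guanine nucleotides across the mitochondrial inner membrane, changed by -0.58 in AGY1861 and -2.36 in AGY1860. PDE1, the low-affinity cyclic AMP phosphodiesterase, changed by -0.27 in AGY1861 and -2.12 in AGY1860. In PDE1, cultures 1 and 2 of AGY1861 stayed at 221 and 217 CPM, near their generation 0 levels of 217 and 220 CPM, and culture 3 had 121 CPM. AGY1860 had 41.4, 50.6 and 61.3 CPM of PDE1 at generation 5, against 216 to 233 CPM at generation 0.

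In the other 3 of the 10 the AGY1861 estimate was above 0, and it was called for CMC1_2 and PCL1 and not for TUB1. CMC1 encodes a mitochondrial protein for assembly of cytochrome c oxidase. Its entry CMC1_2 reached 12860, 16428 and 4626 CPM in AGY1861 at generation 5, against 122, 113 and 112 CPM in AGY1860. Its generation 0 levels were 260 to 278 CPM in AGY1861 and 243 to 283 CPM in AGY1860. The log2 change was 5.402 ± 0.40 in AGY1861 and -1.15 ± 0.35 in AGY1860, and the difference was 6.55 ± 0.52. The gene's other entry, CMC1_1, changed by only 0.54 in AGY1861 and -0.09 in AGY1860 and was called in neither the strains nor the difference. The 2 entries of CMC1 therefore differ in AGY1861, and which of them reflects the gene's dose was not tested.

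PCL1, a cyclin that activates the kinase Pho85 in G1, stood at 833, 815 and 433 CPM at generation 5 in AGY1861, against 183, 147 and 185 CPM in AGY1860. The groups do not overlap, which the choice of the entry favours, and the start was 316 ± 20.8 CPM in AGY1861 and 311 ± 10.48 CPM in AGY1860. PCL1 changed by 1.12 ± 0.21 in AGY1861 and -0.86 ± 0.21 in AGY1860, with adjusted p of 0.0055 and 0.0114 by edgeR's test. TUB1, which encodes alpha-tubulin, had 202, 198.5 and 113 CPM at generation 5 in AGY1861, against 15.8, 32.1 and 33.1 CPM in AGY1860. Its start was 78.0 ± 2.65 CPM in AGY1861 and 69.5 ± 6.27 CPM in AGY1860. The change of TUB1 was 1.12 ± 0.32 in AGY1861, with an adjusted p of 0.0597 by edgeR's test, and -1.34 ± 0.32 in AGY1860.

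**Figure D3:**
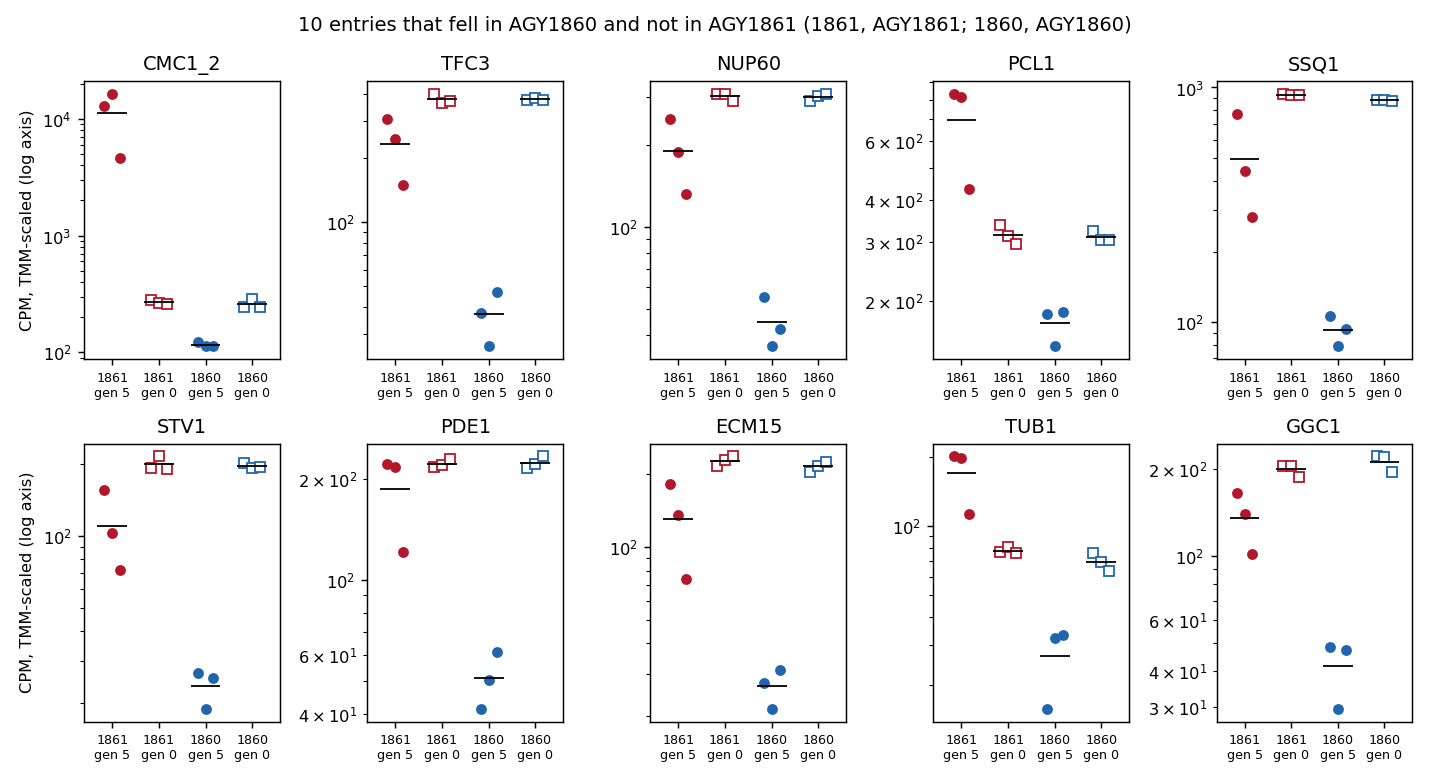
CPM per library (log axis, scaled for each panel) for the 10 entries with the lowest adjusted p among those that fell in AGY1860 and not in AGY1861. Red marks AGY1861, blue AGY1860, filled circles generation 5, open squares generation 0, points run from culture 1 to 3 and lines are means. TFC3 averaged 235 CPM in AGY1861 and 36.9 CPM in AGY1860 at generation 5.

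The roles of the remaining members were looked up after their values were seen. JAC1, the J-protein that works with Ssq1, changed by -0.06 in AGY1861 and -4.07 in AGY1860, with a thin start of 46.8 counts per generation 0 library. ERG26, an enzyme of ergosterol synthesis, changed by -0.73 in AGY1861 and -3.37 in AGY1860. VMA1, the catalytic subunit of the vacuolar ATPase, changed by -0.62 in AGY1861 and -2.51 in AGY1860. The cell cycle genes ESP1 (separase), CLB1 (a mitotic cyclin) and APC9 (anaphase-promoting complex) changed by -0.32, -0.08 and -0.66 in AGY1861. In AGY1860 their changes were -1.98, -2.22 and -1.67. FTR1, the high-affinity iron permease, changed by -0.40 in AGY1861 and -2.79 in AGY1860.

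LOC1, a nuclear factor of ASH1 mRNA localisation and ribosome assembly, changed by -0.74 in AGY1861 and -3.53 in AGY1860. AEP3, a mitochondrial factor for ATP synthase transcripts, changed by -0.83 in AGY1861 and -2.93 in AGY1860. CIT3, a mitochondrial citrate synthase, changed by -1.05 in AGY1861 and -3.44 in AGY1860. These 3 were lower in AGY1861 by their estimates, and none was called. The DNA repair gene RAD54 changed by -0.19 in AGY1861 and -2.22 in AGY1860, and TOP3, a topoisomerase, by -0.21 in AGY1861 and -2.23 in AGY1860. The fall in AGY1860 was shallower in STE4, the beta subunit of the pheromone-pathway G protein, with 0.19 in AGY1861 and -1.22 in AGY1860. TRM5, a tRNA methyltransferase, changed by 0.42 in AGY1861 and -0.66 in AGY1860. AVT1, BUD4, SHQ1, GAT3, RAD34, REX3, REB1, VPS9, CMR1, YPS5, PER33, JIP5, TPO4, CUE5, FMP48, DMO2, ABP1, YGR122W, YLR030W, YLR125W, YLR179C, YCL002C, HIR3, LSB3 and OXP1 complete the class. Of the 60, 9 had under 50 counts at generation 0, HIR3, LSB3 and OXP1 among them, and their changes rest on few counts.

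In 5 of the 60 entries no count was left in any AGY1860 library at generation 5, so only a bound can be given. Against a floor of 3 counts per library, PCA1, a cadmium-exporting ATPase, was at least 3.97-fold lower than at generation 0. MSE1, the mitochondrial glutamyl-tRNA synthetase, was at least 3.37-fold lower, OSH6, a lipid transfer protein, at least 2.67-fold and CHS1, a chitin synthase, at least 1.18-fold. AZF1 started under the floor and has no fold. In AGY1861 at generation 5 PCA1 had 2, 20 and 75 counts, OSH6 9, 10 and 16, and AZF1 8, 79 and 68. CHS1 had 1, 28 and 16 counts there. MSE1 had 1, 5 and 10, against 14, 29 and 41 at generation 0. The culture 1 counts of PCA1, CHS1 and MSE1 lie under the same floor. At the edge of the class, NDT80, CHS1 and APC9 had an adjusted p of 0.0490 to 0.0494 for the difference. IST2, NRE1 and ELA1, just outside it, had 0.0501 to 0.0521.

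Among the 40 entries that fell in both strains, the median log2 change was -0.79 in AGY1861 and -1.50 in AGY1860. The 5 lowest by mean change were NNF1, ERG3, COX20, DEG1 and MET14. ERG3, the sterol C-5 desaturase, fell to 264, 225 and 147 CPM in AGY1861, against 398 to 439.5 CPM at generation 0. In AGY1860 it fell to 35.4, 30.4 and 47.2 CPM, against 370.0 to 422 CPM at generation 0. The fall was deeper in AGY1860 by 2.35 ± 0.30 on the log2 scale. NNF1, a kinetochore subunit, changed by -0.99 in AGY1861 and -3.61 in AGY1860. COX20, a cytochrome c oxidase assembly factor, changed by -1.12 in AGY1861 and -3.19 in AGY1860. DEG1, a tRNA pseudouridine synthase, changed by -0.92 in AGY1861 and -3.19 in AGY1860. MET14, the kinase of sulfate assimilation, changed by -1.17 in AGY1861 and -2.90 in AGY1860. The number of shared falls depends on every AGY1861 culture. It was 13, 3 and 2 with both libraries of culture 1, 2 and 3 left out, and 6 without any 1 of the AGY1861 generation 0 libraries. Without 1 AGY1860 library it was 78 to 118 at generation 5 and 19 to 20 at generation 0. Without culture 3 the median change of the 40 was -0.66 in AGY1861 and -1.52 in AGY1860.

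No entry fell in AGY1861 and not in AGY1860 with a called difference. At an unadjusted p under 0.05 the difference was called for 700 entries in either direction, and by DESeq2 3 entries met the reverse rule. The 4 entries called lower only in AGY1861, named after their values were seen, were WHI4, LAF1, PML1 and YSP3. PML1, a subunit of a complex that retains unspliced transcripts in the nucleus, had 188, 183 and 205 CPM at generation 5 in AGY1861, against 289 to 310.2 CPM at generation 0. In AGY1860 it had 258, 257 and 243 CPM at generation 5, against 260 to 271 CPM at generation 0. The AGY1861 change of PML1 was -0.62 ± 0.12 and its difference -0.56 ± 0.16, which missed the threshold by edgeR's test (adjusted p = 0.103). WHI4, an RNA-binding protein, differed by -0.39, LAF1 by -0.58 and YSP3, a protease, by -0.69, with adjusted p of 0.299 to 0.349 by edgeR's test.

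The 2 entries with a negative difference were transcription factors that gained in AGY1860. SFP1, an activator of ribosome biogenesis genes, had 403, 392 and 585 CPM at generation 5 in AGY1861, against 853, 812 and 998 CPM in AGY1860. Its generation 0 level was 499 ± 5.13 CPM in AGY1861 and 512 ± 8.01 CPM in AGY1860. SFP1 changed by -0.10 in AGY1861 and 0.79 in AGY1860, a difference of -0.89 ± 0.21. AFT1, the activator of the iron regulon, changed by 0.07 in AGY1861 and 0.80 in AGY1860, a difference of -0.72 ± 0.18. Without AGY1861 culture 3 the difference of AFT1 was -0.79 and no longer called by edgeR's test (adjusted p = 0.0526), and that of SFP1 was -1.13. By that fit 45 entries had a called negative difference.

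The 68 entries that rose in AGY1861 without a called fall in AGY1860 hold the dominant barcodes, with a median log2 change of 2.94 in AGY1861 and 0.17 in AGY1860. SSA2, a cytosolic Hsp70, took 172307, 324580 and 143467 CPM in AGY1861 at generation 5, against 322, 267 and 255 CPM in AGY1860. Its generation 0 levels were 518 to 528 CPM in AGY1861 and 493 to 536 CPM in AGY1860. The difference was 9.56 ± 0.63 on the log2 scale. SMA1, a protein of spore membrane assembly, reached 105194, 141211 and 75647 CPM in AGY1861, against 329, 251 and 331 CPM in AGY1860.

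MPD1, a disulfide isomerase of the endoplasmic reticulum, differed by 8.12 ± 0.50 and MPT5, a Pumilio-family RNA-binding protein, by 7.77 ± 0.66. YNL190W differed by 7.62 ± 1.05, and 1 of its AGY1861 generation 0 libraries held 5 counts where the other 2 held 339 and 367. For SSA2, SMA1, MPD1, MPT5 and YNL190W the lowest of the 3 AGY1861 values was in culture 3. Without that culture the median change of the 68 was 3.22 in AGY1861 and 0.15 in AGY1860.

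The lists of genes chosen by function hold few of the entries called lower in AGY1860 and not in AGY1861 with a called difference. Of 19 glucan and chitin synthesis entries tested, 3 met the rule, beside 1.33% of all entries: GSC2, a glucan synthase subunit, GAS3, a putative glucan-remodelling enzyme, and CHS1. In that list 0 entries were called lower in AGY1861 and 4 (21.1%) in AGY1860, beside 0.973% and 11.7% of all entries. GSC2 changed by -1.65 in AGY1861 and -4.47 in AGY1860. GAS3 had 5, 20 and 14 counts at generation 5 in AGY1861, against 0, 1 and 2 counts in AGY1860. The difference of GSC2 was 2.82, and without AGY1861 culture 3 it was 3.09 and not called (edgeR's test, adjusted p = 0.0661). By that fit 1 entry of the list met the rule, and without culture 1 or culture 2 of AGY1861 none did. For CHS1 the AGY1860 fall is only a bound, at least 1.18-fold. In the 12 fits without a single library, GSC2 met the rule in 1, GAS3 in 3 and CHS1 in 2. Of 16 wall genes whose transcripts Ssd1 binds, 0 were called lower in AGY1861, 1 in AGY1860 and 0 for the difference. The shares over all entries were 0.973%, 11.7% and 3.05%, so in a list of 16 these counts say little about its members.

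Other lists held 1 such entry each. SAM3, the permease for S-adenosylmethionine, in the list for sulfate assimilation and methionine, changed by -1.26 in AGY1861 and -3.62 in AGY1860. BAS1, an activator of histidine and purine synthesis genes, changed by -0.66 in AGY1861 and -2.42 in AGY1860. MRPL44, of 67 mitochondrial ribosomal protein entries, changed by -0.28 in AGY1861 and -1.50 in AGY1860, and MSE1 was the 1 member of the tRNA synthetase list. DOM34, which rescues stalled ribosomes, fell in both strains, by -0.84 in AGY1861 and -2.99 in AGY1860.

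In the lists for the CCT chaperonin, prefoldin, the proteasome, glycolysis, and Hsp90 with its partners, no entry was called for the difference. In lists of 6, 6, 35, 22 and 21 entries, beside 3.05% called of all entries, that count says little about them. Some of the members nearest the threshold were called higher in AGY1860 and not in AGY1861. TCP1, a subunit of the chaperonin, changed by -0.30 in AGY1861 and 0.82 in AGY1860, with a difference of -1.13 ± 0.31 (adjusted p = 0.0789 by edgeR's test). CDC19, pyruvate kinase, changed by 0.06 in AGY1861 and 1.14 in AGY1860, a difference of -1.08 ± 0.30, and PDC5, a pyruvate decarboxylase, differed by -1.22 ± 0.35. SCW4, a wall glucanase of the Ssd1-bound list, changed by -0.05 in AGY1861 and 0.81 in AGY1860, a difference of -0.86 ± 0.26. With AGY1861 culture 3 left out, the differences of TCP1 (-1.46), CDC19 (-1.38) and SCW4 (-1.20) were called. CCT3, another chaperonin subunit, ran the other way, with -0.28 in AGY1861 and -3.40 in AGY1860. Its difference of 3.12 ± 0.81 missed the threshold by edgeR's test (adjusted p = 0.0607). The others named by the same rule, SGT1 (1.09), JJJ3 (-0.49), GIM5 (-1.87), PAC10 (0.82), IRC25 (-0.58), RPT3 (-0.60), PRY2 (2.89), and MSY1 (-1.86) and MST1 (1.81) of the tRNA synthetases, had log2 differences that were not called.

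The share called lower in AGY1860 was 2.86% of 35 proteasome entries and 0% of 21 entries for Hsp90, Hsp104 and J-proteins, beside 11.7% of all entries. Of 53 small and 71 large cytosolic ribosomal protein entries tested, 0 were called lower in AGY1861, against 3 (5.66%) and 7 (9.86%) in AGY1860, beside 0.973% and 11.7% of all entries. The 3 with a called difference all gained in AGY1861, RPS29A (4.55 ± 0.47), RPS19A (2.32 ± 0.29) and RPL37B (2.73 ± 0.42). Without AGY1861 culture 3, the difference was negative and called for 5 of the 71 large subunit entries, beside 45 of all 4500 entries. Without culture 1 or culture 2 of AGY1861 it was negative and called for 0 of them. The differences of PAB1 (2.48 ± 0.38), HYP2 (2.11 ± 0.31), DHH1 (1.09 ± 0.26) and GLC7 (2.29 ± 0.39) were also gains in AGY1861. These are the poly(A)-binding protein, the translation factor eIF5A, a helicase of mRNA decay and the catalytic subunit of protein phosphatase 1.

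The 60 entries lay on all 16 chromosomes, from 0.461% of the entries tested on chromosome V to 2.86% on chromosome I. On chromosomes IV, VII, XII and XV, those the study added, they were 0.88%, 2.32%, 2.21% and 1.22% of the entries tested. The chromosome was read from the systematic name. That name also numbers each open reading frame outward from the centromere, and a pattern in the number was noticed after the values were seen.

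Of 26 tested entries numbered 001, next to a centromere, 4 (15.4%) were called lower in AGY1861 and 12 (46.2%) in AGY1860, beside 0.973% and 11.7% of all entries. The difference was positive and called for 10 (38.5%), beside 3.01% of all. Of these 26, 6 fell in AGY1860 and not in AGY1861: TFC3, ECM15, LOC1, ERG26, AVT1 and CIT3. Another 4 fell in both strains: DEG1, MET14, DOM34 and HAT1. The difference was not called for HAT1 (adjusted p = 0.292 by edgeR's test). It was called for SGN1, which rose 10.9-fold in AGY1861 and was not called in AGY1860. Among 25 entries numbered 002, 1 was called lower in AGY1861 and 7 in AGY1860. From 003 to 005, 2 of 75 were called lower in AGY1861 and 7 in AGY1860. The median change of the 001 entries was -0.60 in AGY1861 and -0.78 in AGY1860. The same 26 entries were called lower at generation 10 in 12 to 14 cases in each of the 6 strains with a generation 10 sample, where 7.01% to 14.7% of all entries were. Without AGY1861 culture 3, 0 of the 26 were called lower in AGY1861, 12 in AGY1860, and the difference was positive and called for 10. It was called for 4 without culture 1 and for 4 without culture 2. The count table does not give the cloned fragments, and whether they hold centromere sequence is not analysed here.

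The other strains of the batch give values that the choice of the 60 entries did not use. In a fit to all 51 libraries, the 60 were called lower at generation 10 in 47 cases in AGY1611, 40 in AGY1613, 41 in AGY1859, 47 in AGY1862 and 51 in AGY1863. Over all 4579 entries of that fit the shares called lower were 11.3%, 7.01%, 9.35%, 11.5% and 13.5% in the same strains. The median log2 change of the 60 was -3.14, -2.54, -2.49, -2.78 and -2.92 there. In all 5 of these strains 32 of the 60 entries were called lower, and 5 entries were called lower in none: JAC1, TRM5, YCL002C, FTR1 and OXP1. TFC3 was called lower in all 5, with log2 changes of -3.37 to -7.45. PCL1 was called lower in 3 of them and changed by 0.62 in AGY1859.

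At generation 5 itself, 2 other strains were sampled. The 60 entries had a median change of -0.42 in AGY1861, -2.52 in AGY1860, -0.71 in AGY1611 and -0.73 in AGY1613 in the same fit. The share of all entries called lower was 0.0218% in AGY1861, 4.78% in AGY1860, 0% in AGY1611 and 0% in AGY1613. None of the 60 was called lower in AGY1861, AGY1611 or AGY1613, and 46 were in AGY1860. In AGY1860 at generation 10, which shares its generation 0 libraries with generation 5, 58 of the 60 were called lower (14.7% of all entries), with a median of -4.22. The difference of AGY1861 from AGY1611 or AGY1613 was not tested.

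**Figure D4:**
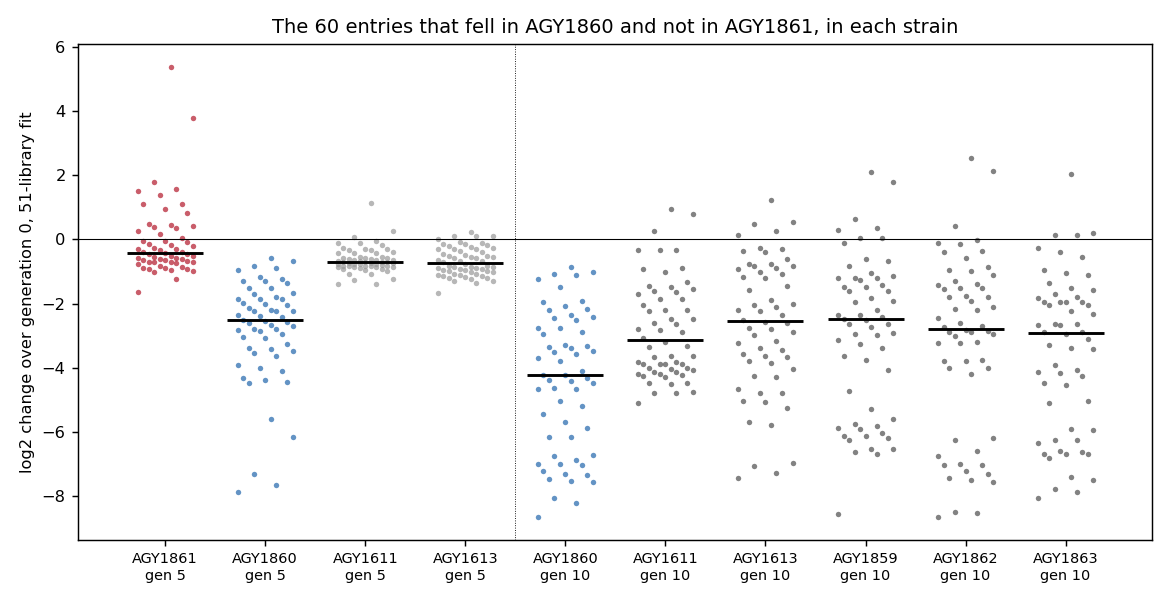
Log2 change over generation 0, from the 51-library fit, of the 60 entries that fell in AGY1860 and not in AGY1861. Each point is an entry, bars are medians, and the dotted line parts generation 5 from generation 10. Medians were -0.42 in AGY1861, -2.52 in AGY1860, -0.71 in AGY1611 and -0.73 in AGY1613 at generation 5, and -2.49 to -4.22 at generation 10.

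A list was made of the entries called lower at generation 10 in AGY1611, AGY1613, AGY1859, AGY1862 and AGY1863. It kept the 137 that were also tested in the 12-library fit and had a mean of at least 50 counts at generation 0. Their median log2 changes were -0.27, -0.59 and -1.12 in AGY1861 cultures 1, 2 and 3. In AGY1860 the medians were -1.72, -2.13 and -1.75. Of the 137, 24 were called lower in AGY1861 and 130 in AGY1860, and the difference was positive and called for 41, beside 0.973%, 11.7% and 3.01% of all entries. Without AGY1861 culture 3 these counts were 2, 131 and 62, without culture 1 they were 9, 127 and 9, and without culture 2 they were 3, 128 and 8. The list is not separate from the class above: 32 entries are in both, which is 23.4% of the 137 and 53.3% of the 60. Every AGY1861 culture had a median below 0, and each was nearer 0 than any AGY1860 median.

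The middle of the pool was narrower in AGY1861, and its upper tail was longer. The interquartile range of log2 changes was 0.64, 0.71 and 0.71 in the AGY1861 cultures, against 1.06, 1.04 and 0.94 in the AGY1860 cultures. The means differed by -0.33, with a two-sided exact permutation p of 0.1, the smallest possible here. The 75th percentile was 0.36, 0.38 and 0.34 in AGY1861, against 0.49, 0.45 and 0.43 in AGY1860. The 99th percentile was 3.65, 3.26 and 2.07 in AGY1861, against 1.57, 1.48 and 1.45 in AGY1860, and 106, 84 and 47 entries rose past 2 in AGY1861, against 18, 10 and 12 in AGY1860. At the low end, 44, 13 and 21 entries lay under -2 in AGY1861, against 298, 333 and 201 in AGY1860. The 5th percentile was -1.03 ± 0.14 in AGY1861 and -2.32 ± 0.33 in AGY1860 (SD, n = 3 each), and the 95th was 1.10 ± 0.21 in AGY1861 and 1.02 ± 0.06 in AGY1860. The empty vector, which carries no yeast gene and was left out of the fits, changed by -0.00084, -0.61 and -0.54 in AGY1861, against -0.89, -1.82 and -1.10 in AGY1860. It rested on 67 to 386 counts at generation 5 in AGY1861 and 162 to 181 in AGY1860, and its exact permutation p was 0.1.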

How the data were processed

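Plasmid barcodes were counted by the authors, and the deposited values are whole-number counts per entry with no normalization. How reads were matched to barcodes is not given in the sources used here. Per the labels' protocols, plasmids were recovered from cell pellets and barcodes amplified with 20 PCR cycles. Besides the empty vector, the batch 2 table lists 4871 gene entries, of which 4865 matched the R64 gene table, used for names only. Floors cover counting error alone: barcodes were amplified by PCR and carry no molecular identifier, so reads may be copies.

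The 12 libraries were fitted with edgeR 4.0.16 in R 4.3.3: filterByExpr at a minimum count of 10, TMM scaling, 1 coefficient per strain and generation, quasi-likelihood F tests with 8 residual degrees of freedom, and Benjamini-Hochberg adjustment over 4524 entries at a threshold of 0.05. Standard errors are the log2 change over the square root of F, an approximation. Depth ran from 474275 to 5452774 counts per library, and the median SD of log2 CPM between replicates was 0.29 in AGY1861 and 0.44 in AGY1860 at generation 5, against 0.08 in both at generation 0. Culture values use log2(CPM + 1) and set generation 5 against generation 0 of the same replicate number, which the labels do not state to be the same transformation. Single values per culture were compared by exact permutation tests.

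Named entries have a mean of at least 50 counts at generation 0. They are the 10 lowest adjusted p of each one-strain class, the 5 lowest that fell in both, the 5 most positive and 5 most negative differences, up to 5 called in opposite directions, and up to 4 called members of each gene list, or in a list with none the 2 with the lowest adjusted p; others were named after their values were seen. Members, lists and tests were chosen with earlier results of these data known. Alternatives were other scalings, filters, DESeq2 1.42.0, all 51 libraries, each strain alone, a culture block, summed entries and leaving out libraries; leaving out whole cultures was added after the data were seen. The fitting code was tested on simulated data. A simulated log2 difference of 1 was called with the right sign in 22% of entries and one of -1 in 34%. For 2 and -2 these were 64% and 72%, so an entry that was not called may still differ.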

Additional observations from a re-analysis of the deposited data

Results flagged for a closer look

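The difference in change between AGY1861 and AGY1860 was called for 138 entries by edgeR's quasi-likelihood test, and the named ones are given here as log2 differences, AGY1861 minus AGY1860. Among entries that fell in AGY1860 and not in AGY1861 they were CMC1_2 at 6.55, TFC3 at 2.64, NUP60 at 2.05, PCL1 at 1.99, SSQ1 at 2.30, STV1 at 2.16, PDE1 at 1.85, ECM15 at 2.16, TUB1 at 2.46 and GGC1 at 1.78. The list members of that class were GAS3 at 4.27, GSC2 at 2.82, SAM3 at 2.36, BAS1 at 1.76 and MRPL44 at 1.22. Entries that fell in both strains, less in AGY1861, were NNF1 at 2.62, ERG3 at 2.35, COX20 at 2.07, DEG1 at 2.27, MET14 at 1.73 and DOM34 at 2.15. Entries that gained in AGY1861 were SSA2 at 9.56, SMA1 at 8.47, MPD1 at 8.12, MPT5 at 7.77, YNL190W at 7.62, RPS29A at 4.55, RPL37B at 2.73, PAB1 at 2.48, RPS19A at 2.32, GLC7 at 2.29, HYP2 at 2.11 and DHH1 at 1.09. The negative ones were SFP1 at -0.89 and AFT1 at -0.72.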

How the results depend on the processing

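No named entry with a called difference turned its sign under any alternative run. These 35 entries kept the call under DESeq2, with summed entries and with library sizes counted without the 50 most abundant AGY1861 barcodes, 16 lost it in the 51-library fit, and 14 and 15 without AGY1861 culture 1 and culture 2. Counts of calls moved with the settings, and except for the numbers of entries and libraries fitted the cause was not tested. For the difference, AGY1861, AGY1860, the entries that fell in AGY1860 alone and those that fell in both, the 51-library fit gave 70, 118, 335, 13 and 1. Library size alone gave 1493 for the difference, 2964 for AGY1861, 24 for AGY1860 alone, 1217 for AGY1861 alone and 504 for both. DESeq2 gave 274, 410, 107, 3 and 115 in that order. With AGY1861 culture 3 left out these were 252, 135, 127, 1 and 2, and with culture 3 of both strains left out 216, 127, 112, 1 and 2. With AGY1861 culture 1 left out the difference was called for 58, AGY1861 for 132, AGY1860 alone for 5 and both for 13, and with culture 2 left out for 54, 82, 10 and 3. The library size without the dominant barcodes gave 70 entries that fell in both. Each strain's 6 libraries alone gave 528 calls in AGY1861 and 517 in AGY1860. Leaving out 1 library at a time gave 69 to 480 for the difference, 125 to 486 for AGY1861, 509 to 1383 for AGY1860, 17 to 226 for AGY1860 alone, 0 to 13 for AGY1861 alone and 6 to 118 for both. The share of the most abundant barcodes differed by 30.3 percentage points (27.1 to 33.8 without 1 culture) and by 38.1 for the top 50. The interquartile range differed by -0.33 (-0.36 to -0.30 without 1 culture) and by -0.27 at a minimum mean of 200 counts. Same-numbered libraries at generations 0 and 5 deviated together in 5 of 6 cultures (0.186 to 0.378) and at 0.0302 in AGY1861 culture 2, which correlated better with another number, so the pairing is not settled and the fit has no block. With the replicate block the difference was called for 153 entries, 122 of them shared. The block gave 66 entries that fell in AGY1860 alone, 43 of the 60 among them, 23 that fell in both and 24 called lower in AGY1861. The shallowest library, AGY1861 culture 1 at generation 5, held 474275 counts, which limits what falls could be seen there.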
